A study of Mus musculus with 6 samples.

Results

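Complement genes were followed in sorted luminal epithelial cells of the mouse prostate, with and without forced expression of the macrophage growth factor CSF1. The set holds 9 of the 24346 gene symbols in the deposited tables, taken by symbol. They are the components C2, C3, C4b, Cfb and Cfp, the regulators Cfi and Cd55, and the anaphylatoxin receptors C3ar1 and C5ar1. All 9 were higher in CSF1 libraries than in wild-type libraries, from a Cd55 that WT cells already carried at 9.89 ± 2.81 FPKM (SD, n = 3) to a C3 that rose from 0.638 ± 0.290 to 29.1 ± 8.41 FPKM. FPKM counts sequenced fragments relative to transcript length and to all mapped fragments, so levels of different genes can be set side by side per length.

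Complement is a cascade of plasma and tissue proteins that tags surfaces for uptake, draws in leukocytes and can perforate membranes. The classical and lectin pathways cleave C4 and C2, the alternative pathway uses factor B (Cfb), and each assembles an enzyme that cleaves C3. Cleavage of C3 and C5 releases the small peptides C3a and C5a, which act on C3ar1 and C5ar1, receptors found mainly on myeloid cells. Host cells limit the cascade with factor I (Cfi), which cuts deposited C3b and C4b, and with membrane proteins such as CD55, which takes the C3-cleaving enzymes apart. The liver makes most plasma complement, and epithelia, fibroblasts and macrophages make it locally.

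The mice were C57BL/6 and 4 months old, and both groups consisted of luminal cells isolated by flow sorting; the sort markers are not named in the labels. CSF1 mice, whose titles carry the letters PB, carried mouse Csf-1 as a transgene. It was driven from the probasin promoter of the rat, a promoter of luminal cells in the prostate, and WT littermates were the controls. Each group had 3 libraries with the numbers 3, 5 and 8 in the titles. The labels do not say whether each library is a separate animal, so the p-values cover only the spread among these libraries, which may be technical. The transgene check came out as labelled, with 1.54, 2.25 and 3.98 FPKM of Csf1 across WT replicates 3, 5 and 8 against 1082, 1326 and 1678 FPKM across CSF1. Mean read depth per FPKM, which grows with sequencing depth, spanned 2.72 to 3.50 for WT libraries and 4.17 to 5.01 for CSF1 libraries. These ranges did not overlap, so depth and group cannot be told apart. Prostate luminal markers were present throughout, for example Krt8 at 1050 FPKM or more and Epcam at 612 FPKM or more in each library. CSF1 replicate 8 stood apart in Pbsn, with 1615 FPKM against 5909 to 25228 FPKM in the other libraries.

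The comparison asks how the level of each complement gene differed between CSF1 and WT libraries, which also differed in markers of other cell types. By limma on log2(FPKM + 1), over the 10951 genes whose mean reached 1 FPKM, 9 of the 9 genes passed an adjusted p of 0.05 as higher and 0 as lower. Of all tested genes 24.9% were called higher and 7.47% lower, 32.4% in all. In each of the 9 genes every CSF1 library lay above every WT library, which was so for 34.7% of all tested genes, with 13.1% the other way round. In 7 of the 9 the WT mean was under 1 FPKM, so these passed the filter on low values only through CSF1. Of all 1006 tested genes with such a WT mean 76.6% were called higher, and the count over the 9 is therefore a description. With no filter on low values 8 of the 9 passed as higher, against 16.2% of the 17920 genes then tested (4.16% lower). The median log2 change of the 9 was 2.46, beside 0.17 for all tested genes.

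**Figure D1:**
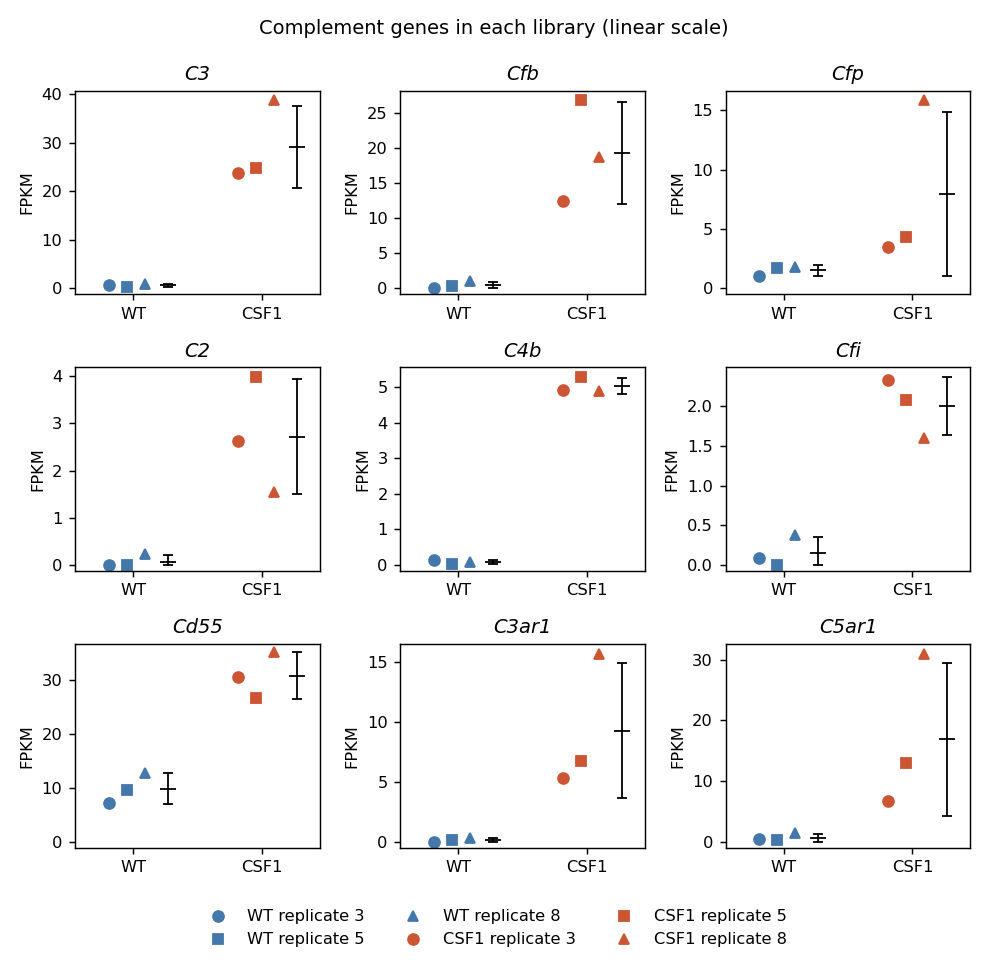
FPKM (linear axes starting near 0, 1 panel per gene) in 3 WT libraries (blue) and 3 CSF1 libraries (orange), with the symbol giving the replicate number and the bar the mean ± SD (cut at 0). CSF1 points lie above WT points in each panel, C4b is tight within CSF1, and Cfp, C3ar1 and C5ar1 are highest in CSF1 replicate 8.

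C3, the central component whose cleavage every pathway leads to, read 0.731, 0.313 and 0.870 FPKM across WT replicates 3, 5 and 8, against 23.7, 24.8 and 38.8 FPKM across CSF1. It was near 0 in each WT library and among the upper levels of the 9 in each CSF1 library. Its mean rose 45.6-fold, and the log2 change was 4.18 ± 0.23 (SE; limma adjusted p = 1.07e-05). The gene lies on the minus strand of chromosome 17, 57203967 to 57228136 in the mm10 build of the tables. Factor B, the serine protease of the alternative C3 convertase, followed it. Cfb read 0.0990, 0.316 and 1.001 FPKM across WT replicates 3, 5 and 8, against 12.4, 26.9 and 18.7 FPKM across CSF1. Its log2 change was 3.77 ± 0.31 (limma adjusted p = 7.41e-05), and the groups did not overlap. Of its 2 listed transcripts, NM_008198 held all Cfb in CSF1, and NM_001142706 held 0.261 of the 0.316 FPKM in WT replicate 5.

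Cfp encodes properdin, which stabilises the alternative convertase and is made largely by leukocytes. It read 1.004, 1.70 and 1.82 FPKM across WT replicates 3, 5 and 8, against 3.51, 4.36 and 15.9 FPKM across CSF1. CSF1 replicates 3 and 5 were close to each other, and replicate 8 was 4.05 times their mean. The log2 change was 1.58 ± 0.45 (limma adjusted p = 0.0284), and it was the least stable call of the 9. The call held under 8 of the 15 alternatives that tested it, with adjusted p from 0.0124 to 0.0985. It was lost without WT replicate 3, 5 or 8 (adjusted p = 0.0881, 0.0686 and 0.0637) and with no filter on low values (0.0899). A pseudocount of 5 (0.0643), quantile normalization (0.0985) and the robust form of the limma fit (0.0503) lost it as well.

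C4b and C2 encode the components that the classical and lectin proteases cleave to build their C3 convertase. C4b read 0.151, 0.0358 and 0.0958 FPKM across WT replicates 3, 5 and 8, against 4.91, 5.28 and 4.88 FPKM across CSF1. The 3 CSF1 libraries lay closer together than for any other of the 9 genes, relative to their mean, and far above WT. The log2 change was 2.46 ± 0.19 (limma adjusted p = 4.73e-05), and the mean rose 53.3-fold from a level near 0. C4b has a near copy, C4a. Of the 50-base stretches of the C4b transcript 35.2% also occur in C4a, and 16.5% of the 100-base stretches, so the split of reads between them is uncertain. Their sum rose as well, from 0.208 ± 0.0853 to 5.46 ± 0.246 FPKM. C4b held 11.0 to 12.1 times the FPKM of C4a in CSF1 libraries and 0.392 to 1.04 times in WT. C2 was listed at 0 in WT replicates 3 and 5 and was at 0.227 FPKM in replicate 8, with a Cufflinks interval of 0.109 to 0.345 FPKM in the deposited table. In CSF1 it was at 2.63, 3.98 and 1.54 FPKM, lowest in replicate 8. Its log2 change was 1.74 ± 0.28 (limma adjusted p = 0.00211).

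Cfi, the protease that inactivates C3b and C4b, had the lowest CSF1 mean of the 9, with libraries that overlap those of C2. It read 0.0842, 0 and 0.376 FPKM across WT replicates 3, 5 and 8, against 2.32, 2.07 and 1.60 FPKM across CSF1, and the groups did not overlap. The log2 change was 1.38 ± 0.23 (limma adjusted p = 0.00247). Cd55, also called decay-accelerating factor, had the highest mean of the 9 in both groups. It read 7.24, 9.58 and 12.8 FPKM across WT replicates 3, 5 and 8, against 30.6, 26.6 and 35.2 FPKM across CSF1, with every CSF1 library at least at 26.6 FPKM. The mean rose 3.12-fold (log2 change 1.57 ± 0.21, limma adjusted p = 0.000771). Cd55 lies on chromosome 1, 130439030 to 130462740, beside its copy Cd55b. These share 13.3% of the 50-base stretches of the Cd55 transcript. Cd55 stood at 8.15 to 10.3 times Cd55b across WT libraries and 9.39 to 10.5 times across CSF1 libraries.

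Both anaphylatoxin receptor genes were clearly detected in CSF1. In WT, C3ar1 was near 0 in each library, while C5ar1 reached 1.46 FPKM in replicate 8. C3ar1, the receptor gene of C3a, read 0.0230, 0.168 and 0.360 FPKM across WT replicates 3, 5 and 8, against 5.34, 6.73 and 15.7 FPKM across CSF1. C5ar1, the receptor gene of C5a, read 0.428, 0.252 and 1.46 FPKM across WT replicates 3, 5 and 8, against 6.69, 12.9 and 31.0 FPKM across CSF1. Replicate 8 was the highest library of its group for both genes, in WT as in CSF1. The log2 changes were 2.99 ± 0.35 for C3ar1 (limma adjusted p = 0.000392) and 3.20 ± 0.48 for C5ar1 (limma adjusted p = 0.00146). Of the 2 listed C5ar1 transcripts, NM_001173550 was listed at 0 in all 6 libraries.

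Per length, the order of the levels changed between the groups. In WT, Cd55 stood alone at the top, and its lowest library (7.24 FPKM) lay above the highest library of every other member (1.82 FPKM, Cfp). In CSF1 the means ran from Cd55 at 30.8 FPKM through C3 at 29.1, Cfb at 19.4, C5ar1 at 16.9, C3ar1 at 9.25, Cfp at 7.93, C4b at 5.02 and C2 at 2.72 to Cfi at 1.998 FPKM. Neighbours in this order overlapped between libraries, except C4b and C2. Cd55 and C3 could not be ranked, with 26.6 to 35.2 FPKM for Cd55 and 23.7 to 38.8 FPKM for C3.

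Promoter windows of RefSeq (GRCm38.p6) were matched by symbol for 5 of the 9 genes (C3, C3ar1, C5ar1, Cd55 and Cfp). That of C5ar1 lies before the transcript listed at 0 and overlaps the other C5ar1 transcript, so it is not shown or read here. The 250 bases before the start site are shown for Cd55 and C3, the members with the highest CSF1 means, and for the receptor gene C3ar1. They are written 5′ to 3′ on the gene's strand, minus for each. Capitals mark a match, on either strand, to the NF-kB letters GGG, any 2 bases, TT, any base, CC. The windows are chr17:57228137-57228386 for C3, chr1:130462745-130462994 for Cd55 and chr6:122856158-122856407 for C3ar1.
C3: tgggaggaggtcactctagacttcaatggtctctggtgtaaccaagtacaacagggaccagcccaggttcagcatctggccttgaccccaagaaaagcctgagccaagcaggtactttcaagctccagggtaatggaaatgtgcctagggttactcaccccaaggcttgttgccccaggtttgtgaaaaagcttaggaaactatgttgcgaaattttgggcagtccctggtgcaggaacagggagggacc
Cd55: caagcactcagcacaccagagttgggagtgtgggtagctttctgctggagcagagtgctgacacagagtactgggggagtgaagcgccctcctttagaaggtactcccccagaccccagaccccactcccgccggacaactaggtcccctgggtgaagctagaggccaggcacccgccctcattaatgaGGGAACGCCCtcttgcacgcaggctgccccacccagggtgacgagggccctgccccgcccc
C3ar1: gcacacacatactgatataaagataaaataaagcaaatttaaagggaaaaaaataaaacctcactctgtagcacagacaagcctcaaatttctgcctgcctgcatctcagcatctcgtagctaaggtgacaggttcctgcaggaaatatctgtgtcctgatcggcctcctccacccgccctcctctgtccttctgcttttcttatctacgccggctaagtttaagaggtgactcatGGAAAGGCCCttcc
The NF-kB letters occurred once in Cd55 (GGGAACGCCC, 61 to 52 bases before the start) and once in C3ar1 (GGAAAGGCCC, 14 to 5 bases before it), and in 4.11% of all 32851 windows of this length. The interferon element letters, GAAA and GAAA with any 2 bases between (2.98% of all windows), and the STAT letters TTCNNNGAA (7.02%) occurred in none of the 4 windows read, on either strand, and Cfp held no match of any of the 3. A match is a description of letters.

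The rest of the pathway was read from lists by role, 45 further genes in all. Of these 21 were tested, and 16 passed as higher, 1 as lower and 4 in neither direction by limma. The shares over all tested genes were 24.9% higher and 7.47% lower. With no filter 39 were tested, of which 16 were higher and 1 lower, with a median log2 change of 0.37 beside 0.09 for all genes. Recognition of the classical pathway starts with C1q, whose 3 chains macrophages make. C1qa rose from 2.08 ± 1.58 to 94.0 ± 74.5 FPKM, C1qb from 6.63 ± 6.24 to 219.6 ± 177 FPKM and C1qc from 2.52 ± 2.87 to 116 ± 94.2 FPKM. The C1 proteases are made by other cells as well. C1s1 went up from 0.974 ± 0.467 to 20.2 ± 7.72 FPKM (3.38 ± 0.30 on the log2 scale, limma adjusted p = 0.000102), and an antisense gene shares 18.4% of its exon bases. C1ra rose from 1.17 ± 0.531 to 11.5 ± 4.25 FPKM. Its copy C1rb read 3.71, 0.366 and 0.386 FPKM across WT replicates 3, 5 and 8, against 4.26, 5.21 and 2.07 FPKM across CSF1 and did not pass (adjusted p = 0.106; 0.00854 without WT replicate 3).

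**Figure D2:**
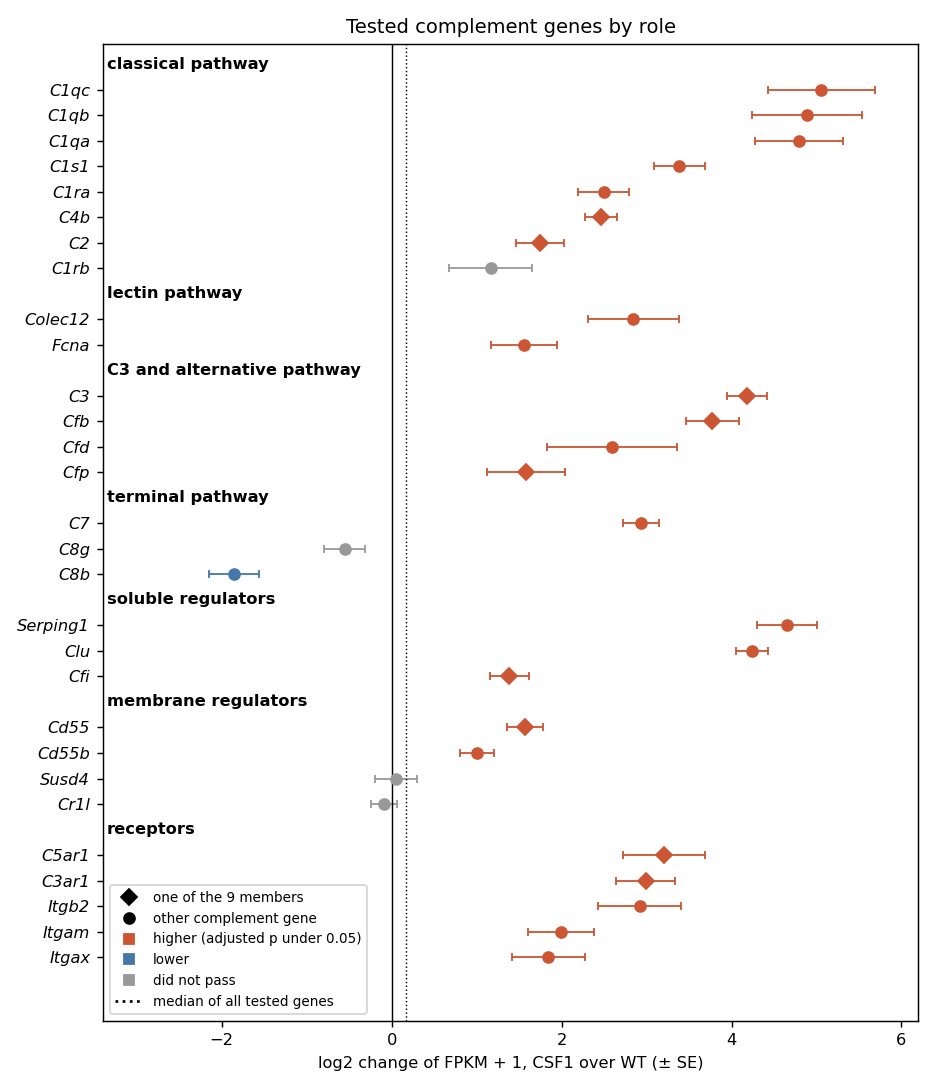
Log2 change of FPKM + 1 with its SE for tested complement genes, grouped by role (1 is not shown), with diamonds for the 9 genes of the set and colour for the limma call. Most roles lie to the right of the all-gene median of 0.17 (dotted), while C8b lies at -1.86 and Cr1l and Susd4 lie near 0.

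Most lectin pathway genes were at or near 0. Of its 9 genes 2 were tested, and Mbl1, Fcnb, Colec10 and Masp2 were listed at 0 in all 6 libraries. Colec12, a membrane scavenger lectin, rose from 0.192 ± 0.241 to 9.59 ± 7.88 FPKM (limma adjusted p = 0.00436), and Fcna from 0.798 ± 0.585 to 4.52 ± 2.86 FPKM (adjusted p = 0.0150; 0.0557 without WT replicate 5). Cfd encodes factor D, the protease that activates factor B, and fat cells are its best-known source. It read 0.132, 0 and 0 FPKM across WT replicates 3, 5 and 8, against 16.8, 8.54 and 0.484 FPKM across CSF1, a spread so wide that the call (limma adjusted p = 0.0311) held under 6 of 15 alternatives. It was lost without any one of WT replicates 3, 5 and 8 and of CSF1 replicates 3 and 5 (adjusted p from 0.0708 to 0.0893).

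Genes of the membrane attack complex did not move together. C7 went up from 0.157 ± 0.0596 to 7.97 ± 1.79 FPKM (2.94 ± 0.21 on the log2 scale, limma adjusted p = 3.64e-05). C8b fell, from 1.55, 3.72 and 3.98 FPKM in WT to 0.0118, 0.197 and 0.0339 FPKM in CSF1 (log2 change -1.86 ± 0.29, limma adjusted p = 0.00180). C8g was at 4.43 ± 1.17 and 2.71 ± 0.8002 FPKM (adjusted p = 0.113) and passed as lower with quantile normalization and with median-ratio scaling (0.0115 and 0.0373). C8a was listed at 0 in each library, and the gene of C5 (Hc) reached 0.0320 FPKM at most.

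Of 8 soluble regulators 4 were tested, and all 4 passed as higher by limma, Cfi among them. C4bp, Vtn, Cpn1 and Cpn2 were under the filter and did not exceed 0.374 FPKM in any library. Serping1, the C1 inhibitor, rose from 4.87 ± 1.98 to 154 ± 72.5 FPKM (log2 change 4.66 ± 0.35). Clu, a secreted inhibitor of the membrane attack complex, had a log2 change of 4.24 ± 0.19. Of 8 membrane regulators 4 were tested, and 2 passed as higher. Cd55b rose from 1.048 ± 0.241 to 3.12 ± 0.521 FPKM (limma adjusted p = 0.00587; 0.0776 with quantile normalization). Cr1l, which encodes the rodent C3b regulator Crry, was the most abundant membrane regulator in both groups. It read 42.3, 49.9 and 60.6 FPKM across WT replicates 3, 5 and 8, against 49.0, 44.9 and 47.8 FPKM across CSF1, with overlap between the groups (log2 change -0.09 ± 0.15, adjusted p = 0.695). Susd4 did not pass either (log2 change 0.05 ± 0.25, adjusted p = 0.890), and the signs of Cr1l and Susd4 turned under some alternatives. Among receptors, the integrin chains of complement receptors 3 and 4 rose with C3ar1 and C5ar1. Itgam went from 0.0913 ± 0.0426 to 3.93 ± 3.19 FPKM, Itgax from 0.00999 ± 0.0173 to 3.25 ± 3.07 FPKM and Itgb2 from 0.512 ± 0.428 to 12.7 ± 10.9 FPKM (limma adjusted p = 0.00516, 0.0114 and 0.00249; for Itgax 0.0617 with quantile normalization). A further gene shares 68.7% of the exon bases of Itgam. C5ar2, Cr2 and Vsig4 reached at most 0.181, 0.0955 and 0.229 FPKM in any library.

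Markers of other cell types moved with these genes. In bulk RNA, more or fewer cells of a type cannot be told apart from more or less RNA per cell. The counts below stand beside 24.9% higher and 7.47% lower of all tested genes. Many macrophage, stroma, endothelial and lymphocyte markers had a WT mean under 1 FPKM and were tested only through CSF1. Of all tested genes with such a WT mean 76.6% were called higher, so these counts are a description. Of 15 tested macrophage markers (16 listed) 14 were higher and 1, Mertk, lower. The list's summed level was 30.5 to 119 FPKM in WT and 711 to 2805 FPKM in CSF1. In WT some of these markers were at or near 0, with Aif1 at 0 in replicate 3, Cx3cr1 at 0 in replicates 3 and 5 and Fcgr1 at 0 in replicates 5 and 8. Others were present in WT, with means of 26.1 FPKM for Lyz2, 13.5 for Cd14, 5.44 for Tyrobp, 5.03 for Mertk, 4.67 for Fcer1g and 4.14 for Cd68. All 9 tested stroma markers (10 listed) were higher, with sums of 99.8 to 110 FPKM in WT and 481 to 757 FPKM in CSF1, and Tagln was at 0 in WT replicates 3 and 8. Dcn held most of these sums, at 88.2 to 102 FPKM in WT and 394 to 522 FPKM in CSF1. Other stroma markers went from means under 1 FPKM to higher ones, for example Col1a2 from 0.718 to 30.8 FPKM and Col3a1 from 0.313 to 22.2 FPKM. Endothelial sums were 1.14 to 2.63 and 12.1 to 15.3 FPKM (3 of 3 tested higher, 7 listed), lymphocyte sums 0.5003 to 1.12 and 7.34 to 25.0 FPKM (2 of 2 tested higher, 10 listed) and basal epithelial sums 26.9 to 40.0 and 393 to 526 FPKM (3 of 3 tested higher, 4 listed). Neutrophil sums were 0 to 0.133 and 1.97 to 34.3 FPKM (0 of 1 tested passed, 10 listed), with Ngp and Mpo at 0 in all 6 libraries. Of 9 luminal markers 2 were higher, 1 lower and 6 did not pass, with sums of 10729 to 30061 and 8500 to 16992 FPKM. Much of the range of these sums came from Pbsn, at 5909 to 25228 FPKM in WT and 1615 to 11931 FPKM in CSF1. Pbsn did not pass (limma adjusted p = 0.363), so the sums do not describe the list. The part of these markers in the complement results was not tested.

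The complement genes differed in which CSF1 library was highest, and so did the marker lists. The ratio of CSF1 replicate 8 to the mean of CSF1 replicates 3 and 5 was 4.05 for Cfp, 3.16 for C5ar1 and 2.60 for C3ar1. It was 1.60 for C3, 1.23 for Cd55, 0.958 for C4b, 0.954 for Cfb, 0.729 for Cfi and 0.467 for C2. Among the other complement genes it was 3.52 to 3.65 for the C1q chains and 3.64 to 4.59 for Itgam, Itgb2 and Itgax. C1ra, C1s1 and Serping1 lay between 0.464 and 0.522. Others lay between or beyond these, with 2.72 for Fcna, 1.39 for C7, 1.35 for Clu and 1.22 for Cd55b. Values were 1.07 for Susd4, 1.02 for Cr1l, 0.563 for C8g, 0.438 for C1rb, 0.182 for Colec12 and 0.0383 for Cfd. The median of this ratio was 3.33 over the 15 macrophage markers with a CSF1 mean of at least 1 FPKM, 0.439 over the 10 stroma markers and 0.896 over the 9 luminal markers. It was 2.93 over 5 lymphocyte, 1.76 over 3 basal and 1.13 over 3 endothelial markers, and 14.5 over 2 neutrophil markers. Values above 1 were therefore not particular to macrophage markers. Single macrophage markers ranged from 0.361 (Mertk) to 4.19 (Cd68). Stroma markers ranged from 0.206 (Col1a2) to 0.972 (Lum) and luminal markers from 0.158 (Pbsn) to 1.64 (Krt8). With both libraries numbered 8 left out, an alternative added after the data were seen, 9 of the 9 genes still passed as higher. So did 15 of the 20 further complement genes tested. Of all 10892 genes tested in that setting, 2414 were higher and 485 lower.

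**Figure D3:**
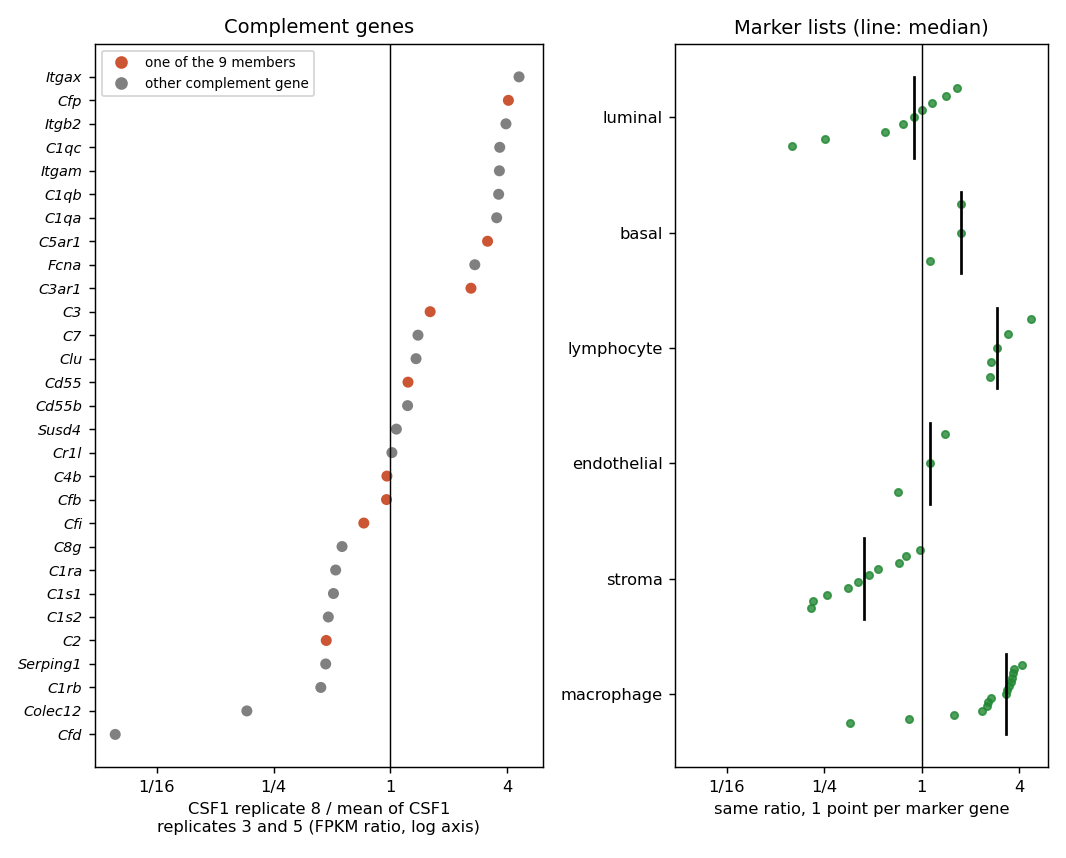
Ratio of FPKM in CSF1 replicate 8 to the mean of CSF1 replicates 3 and 5 (log axis), for complement genes (left, 1 not shown, the 9 genes in orange) and for marker genes by cell type (right, line at the median), each with a CSF1 mean of at least 1 FPKM. Cfp, C5ar1 and C3ar1 lie from 2.60 to 4.05, the macrophage median at 3.33 and the lymphocyte median at 2.93. C2 lies at 0.467 and the stroma median at 0.439. Neutrophil markers (median 14.5) are not shown.

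C4b, Cfb and C2 lie together in the class III part of the mouse MHC on chromosome 17, within 153.7 kb from 34728381 to 34882100. Cfb (34856374 to 34862514) and C2 (34862602 to 34882100) are adjacent on the same strand. A read-through gene in GENCODE M21, Gm20547, shares 79.5% of the exon bases of Cfb and 42.8% of those of C2. It is not among the symbols of the tables, so its fragments are not separated from theirs. Within 100 kb of the span lie 23 other listed genes, of which 15 were tested. By limma 4 of the 15 (26.7%) were higher and 0 lower, close to the 24.9% of all tested genes, with a median log2 change of 0.32. Those 4 were the heat shock genes Hspa1a, Hspa1b and Hspa1l, near copies of each other whose single values are uncertain, and the RNA gene 1110038B12Rik, with log2 changes of 1.43, 1.34, 1.36 and 0.46. Tnxb, the listed gene next to C4b, was at 0.0200 ± 0.0151 and 0.434 ± 0.0884 FPKM, and C4a was at 0.114 ± 0.0286 and 0.438 ± 0.0306 FPKM. Both were under the filter, and both passed as higher in the fit without it (adjusted p = 0.00374 and 0.00489). Nelfe, next to Cfb, was at 18.6 ± 0.657 and 24.4 ± 6.08 FPKM (adjusted p = 0.174). Stk19, between C4a and Cfb, was at 19.6 ± 2.75 and 24.6 ± 0.832 FPKM (adjusted p = 0.127).

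**Figure D4:**
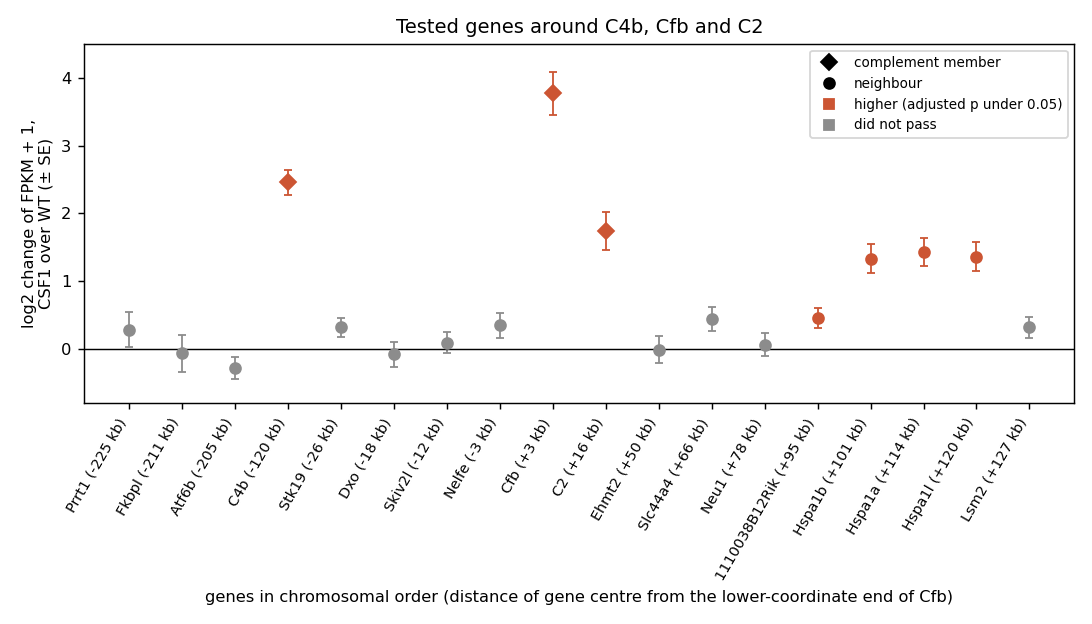
Log2 change of FPKM + 1 with its SE for tested genes within 100 kb of the span of C4b, Cfb and C2, in chromosomal order, with the distance from the lower-coordinate end of Cfb in kb. C4b (2.46), Cfb (3.77) and C2 (1.74) stand above the tested genes next to them, and 4 genes at the right also passed as higher.

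The profile of each member over the 6 libraries was also compared with that of every other tested gene, by the root mean square difference of log2(FPKM + 1) after centring each gene on its own mean. The nearest gene was Pmaip1 for C3 (0.136), Ctgf for Cfb (0.191), Cd2 for Cfp (0.141), Bmp2 for C2 (0.070), S100a3 for C4b (0.081), Vsig10 for Cfi (0.099) and Gsta4 for Cd55 (0.1). It was Tpm2 for C3ar1 (0.095) and Cybb for C5ar1 (0.170). The difference is smaller for genes of small change, so these values do not rank the members.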

How the data were processed

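RNA sequencing libraries of sorted luminal cells were read from 6 deposited Cufflinks isoform tables, 1 per library. The tools were bcl2fastq 1.8.3, TopHat and Cufflinks, and the build was mm10, per the submitters' processing notes. FPKM values and their interval bounds are those the authors deposited. The deposited coverage column, a signal of mean read depth, was 1 constant times FPKM in each table. Fragment totals are not given, so depth is known only through this constant. The kits named in the labels do not mark strand.

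FPKM was summed per gene symbol, and 9 genes with a failed or skipped Cufflinks status were left out. Genes whose mean reached 1 FPKM were tested as log2(FPKM + 1), which understates changes of low genes, with limma 3.58.1 in R 4.3.3 (moderated test with trend, two-sided, Benjamini-Hochberg over all tested genes, threshold 0.05). The fit was also run on simulated data with noise drawn independently for each gene. That run does not cover differences shared by many genes of a library. The 9 genes, the lists and the naming rule (all members, the pathway lists, tested neighbours that passed, nearest profiles, markers at 0 or most abundant) were chosen with earlier results of these data known. Protein sequences were not used here, and near copies were compared by transcript sequence of GENCODE M21. Deviations from group means correlated at 0.257, 0.111 and 0.182 between libraries numbered 3, 5 and 8. Between libraries of unlike number they correlated at -0.227 to -0.006. Centring on the group means ties all these values together. The labels do not say what the numbers mark, so treating them as pairs was kept as an alternative. Alternatives were pseudocounts, filters, scalings, weights, a replicate block and leaving out libraries. Some genes of the lists entered the counts and are not reported here by name.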

Additional observations from a re-analysis of the deposited data

How the results depend on the processing

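Each of the 9 complement genes kept a positive log2 change under each alternative that tested it, and the call was lost for Cfp alone. Of the whole table, 2731 genes were higher and 818 lower (77.0% of calls higher). With quantile normalization these were 1694 and 2362 (41.8% higher), and with median-ratio scaling 2135 and 1677 (56.0%). The median of all genes moved from 0.17 to -0.16 and -0.01. With a mean of at least 5 FPKM, where fewer genes are tested, 1761 of all 7195 tested genes were higher. There, 4 of 4 tested members and 9 of 10 tested further complement genes passed as higher, with 0 of these lower. Without single libraries, or without both numbered 8, 478 to 850 genes were lower, fewest without WT replicate 5 (478), both libraries numbered 8 (485) and WT replicate 8 (526). Of the 21 further complement genes tested, 12 were higher and 2 lower with quantile normalization, where Cd55b, Itgax, Fcna and Cfd lost their calls, and 16 were higher and 2 lower with median-ratio scaling, against 16 and 1. The sign of Cr1l, which passed under none, turned to 0.0395 without WT replicate 8 and to 0.0312 without both libraries numbered 8 (-0.214 to 0.0395 over single left-out libraries). That of Susd4 turned to -0.50 with quantile normalization, -0.0674 with median-ratio scaling, -0.021 with array weights, -0.079 without WT replicate 3 and -0.0968 without CSF1 replicate 3 (up to 0.240 without CSF1 replicate 5). The cause of these shifts was not tested. With the replicate block 9 members, 16 further complement genes and 2883 genes in all were higher and 890 lower, and no call on a complement gene changed. The number of fragments behind values under 1 FPKM is not known.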

Other observations

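Within a library, C3ar1 kept a nearly constant ratio to Csf1r, the gene of the CSF1 receptor, across the CSF1 group, at 0.389, 0.372 and 0.389 in replicates 3, 5 and 8. In WT, where both genes were under 1 FPKM, this ratio was 0.0538, 0.633 and 0.448. The ratio of C5ar1 to Csf1r was 0.487, 0.715 and 0.770 in CSF1 and 1.001, 0.950 and 1.82 in WT. That of Cfp to Csf1r was 0.256, 0.241 and 0.395 in CSF1 and 2.35, 6.41 and 2.27 in WT. These ratios were chosen after the values were seen and were not tested.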
